A study of Mus musculus with 17 samples.

Results

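The genes described here handle retinoic acid (RA) inside the cell, from the uptake of its precursor to its receptors. There are 9 of them among the 54532 genes of the deposited table. They were taken by name: *Stra6*, *Dhrs3*, *Crabp1*, *Crabp2*, *Cyp26a1*, *Cyp26b1*, *Rara*, *Rarb* and *Rarg*, each of which has 1 row. RNA sequencing was carried out on R1/E mouse embryonic stem cells (R1 in the labels), which were wild-type (WT) or carried a *Usb1* knockout (KO). Cells were taken on day 0 (self-renewing, no RA) and after RA treatment on days 1 and 3. No library came from untreated cells of days 1 and 3, so changes by RA and by time in culture cannot be told apart. The WT group of day 0 had 2 libraries and each of the other 5 groups had 3, which makes 17 libraries in 6 groups. The KO libraries came from 1 CRISPR/Cas9 line (KO-1), so the effect of the knockout and a difference between clones cannot be told apart. The methods describe the replicates as independent biological replicas, and the concentration of RA was not given in the labels.

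RA is a small lipid hormone made from vitamin A (retinol), and it is widely used to push embryonic stem cells out of self-renewal. STRA6 is a membrane receptor that takes up retinol, DHRS3 reduces retinaldehyde back to retinol, CRABP1 and CRABP2 bind RA in the cytoplasm, and the CYP26 enzymes oxidise RA to less active products. RA acts through the nuclear receptors RARα, RARβ and RARγ, which pair with RXR receptors on direct repeats in DNA. Several of these genes are themselves RA targets, which gives the pathway a feedback.

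Values are in TPM, a transcript level that is divided by gene length and scaled to the same total in each library, so that genes can be compared. The reads behind each value were recovered from TPM, and reads on genes ranged from 15404379 to 17300189 per library. At this depth a gene listed at 0 could still have had up to 3 reads under counting error alone, for instance 0.328 TPM for *Cyp26a1* in KO day 0 replicate 1. All 9 genes were among the 21871 that passed the filter on low values (TPM of at least 1 in at least 2 libraries). Changes are differences of log2(TPM + 1) with their standard error (SE), which understate the change of genes at a low level. A gene was called at a Benjamini-Hochberg adjusted p under 0.05 in limma together with at least a 2-fold change.

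Before the comparisons, the labels were checked. *Usb1*, the gene of the enzyme that trims the 3′ tail of U6 snRNA, had levels of 40.0 and 37.1 TPM (WT) and 15.5, 15.2 and 17.9 TPM (KO) on day 0. The log2 difference of *Usb1* between KO and WT cells was −1.20 at day 0 (SE 0.12, adjusted p = 3.23e-05), −1.34 at day 1 (SE 0.11, adjusted p = 1.97e-06) and −0.93 at day 3 (SE 0.11, adjusted p = 9.37e-05), the last short of 2-fold. The KO-1 mutation cuts the protein short, so mutant mRNA can still be counted. *Eif2s3y*, a Y-linked gene, had 0 reads in all 9 KO libraries and was between 61.8 and 85.6 TPM in the 8 WT libraries. For the labelled cell type, *Pou5f1*, the most abundant pluripotency marker at day 0, was at 1382 TPM on average in WT and 1390.3 TPM in KO cells.

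WT day 0 replicate 1 stood apart from the other libraries. Only 239 genes had exactly 1 read in it, against 1352 in WT day 0 replicate 2 and 1224 to 2467 in the other 15 libraries, and 17090 genes were above 0 in it, against 21898 to 24900 in the other 16. Comparisons with WT day 0 rest on this library and 1 other, and values of the 9 members whose call or direction depends on it are given with and without it. Other genes were not followed one by one without it.

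RA receptors bind direct repeats of a hexamer, most often with 5 bases between them. In windows from 250 bases before to 50 bases after each annotated start (RefSeq, GRCm38.p6), a search on both strands covered the hexamers AGGTCA or AGTTCA or GGGTCA or GGTTCA, repeated in 1 direction with a spacer of 5. Such a repeat was found in 32 of 32851 windows of all genes (0.0974%). Among the members, 8 had windows (17 in all), all but *Crabp2*, and *Rarb* and *Cyp26a1* were the members that held the repeat. These windows are shown as the members' only matches. Both genes rose at day 1 and again at day 3 in WT cells, and so did *Cyp26b1*, whose window held neither the repeat nor a single hexamer. They are read in the direction of the gene, with the repeat of 17 bases in capitals; in *Cyp26a1* it lies on the opposite strand, so the hexamers appear there as their reverse complement. The windows are chr14:16575427-16575726 (minus strand) for *Rarb* and chr19:37697558-37697857 (plus strand) for *Cyp26a1*.
Rarb: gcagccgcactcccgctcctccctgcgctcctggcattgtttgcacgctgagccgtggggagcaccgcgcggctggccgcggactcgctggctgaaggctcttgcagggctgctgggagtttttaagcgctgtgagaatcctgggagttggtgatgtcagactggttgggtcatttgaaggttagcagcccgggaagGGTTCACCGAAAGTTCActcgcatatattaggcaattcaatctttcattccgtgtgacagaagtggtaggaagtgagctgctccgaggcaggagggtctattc
Cyp26a1: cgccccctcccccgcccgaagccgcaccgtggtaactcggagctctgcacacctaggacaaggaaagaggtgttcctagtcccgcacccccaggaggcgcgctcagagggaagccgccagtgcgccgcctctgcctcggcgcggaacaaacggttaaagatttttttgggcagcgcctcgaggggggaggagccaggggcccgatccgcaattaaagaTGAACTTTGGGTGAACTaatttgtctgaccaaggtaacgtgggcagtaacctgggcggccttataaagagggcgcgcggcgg

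The repeat ran from position −53 to −37 relative to the start in *Rarb*, and from −32 to −16 in *Cyp26a1*. Repeats with a spacer of 1 or 2 were in 0.222% and 0.268% of all windows and in none of the members' windows. A single hexamer is common: 43.7% of all windows held at least 1, and so did windows of 5 members. These matches are a description of letters near the start and show neither binding nor its absence elsewhere.

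**Figure D1:**
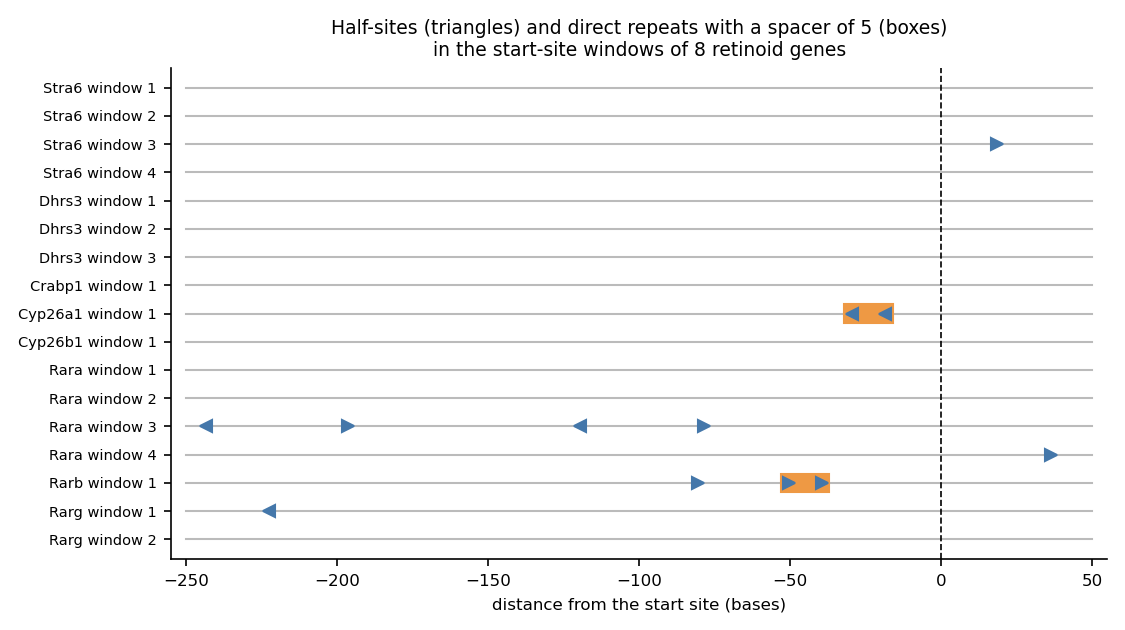
Positions of receptor hexamers (triangles, pointing right for the gene's own strand and left for the opposite strand) and of direct repeats with a spacer of 5 (boxes) in the 17 windows of 8 members, against distance from the annotated start in bases. *Rarb* and *Cyp26a1* each held 1 such repeat within 53 bases of the start.

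Most of the 9 genes changed over the days of RA treatment in both genotypes. From day 0 to day 1 in WT cells, *Cyp26a1*, *Cyp26b1*, *Rarb*, *Crabp2*, *Dhrs3* and *Stra6* rose, 6 of 9 members against 9.99% of all genes tested, and 0 of 9 members fell against 3.88%. By day 3 against day 0 the same 6 members were higher (16.1% of all genes) and *Rarg* and *Crabp1* were lower (9.68%). Between day 1 and day 3 in WT cells, *Cyp26a1*, *Cyp26b1* and *Rarb* rose further (7.70% of all genes) while *Rarg* and *Crabp1* fell (7.54%). The median log2 change over the 9 members was 2.67 at day 1 and 4.08 at day 3, beside 0.17 and 0.10 over all genes.

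In KO cells, 5 of 9 members rose by day 1 (*Cyp26a1*, *Rarb*, *Crabp2*, *Dhrs3* and *Stra6*; 4.07% of all genes) and 0 of 9 fell (2.87%). At day 3 against day 0 the calls named the 6 and 2 genes seen in WT cells, against 13.8% of all genes higher and 8.04% lower. From day 1 to day 3, *Cyp26b1*, *Rarb* and *Crabp2* rose (9.60% of all genes) and *Rarg* fell (5.73%). *Crabp1*, called lower over these days in WT, was short of 2-fold in KO cells (−0.95, SE 0.22, adjusted p = 0.00234). It was called there after quantile normalization (−1.14, adjusted p = 0.00113), with an equal median (−1.15, adjusted p = 0.00196), in limma-voom (−1.09, adjusted p = 4.57e-04) and without KO day 3 replicate 1 (−1.14, adjusted p = 9.89e-04). The change did not pass as different between the genotypes (0.35, SE 0.31, adjusted p = 0.584). The median over the members was 1.78 at day 1 and 3.78 at day 3, beside 0.02 and 0.03 over all genes.

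**Figure D2:**
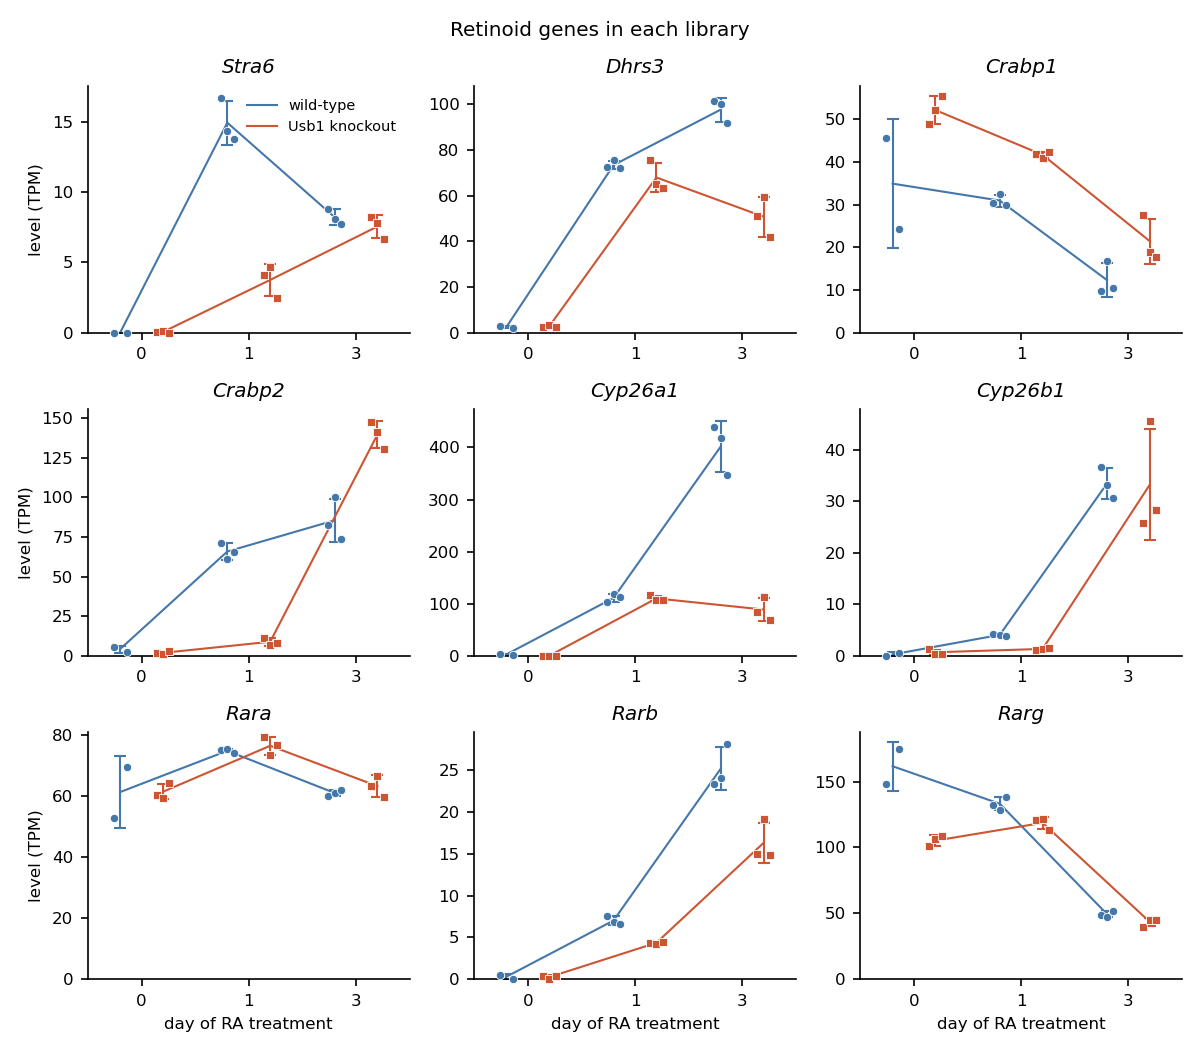
Level of each gene in TPM (vertical axis, from 0) against day of RA treatment (evenly spaced categories) in WT (circles) and KO (squares) libraries. Lines join group means, and bars are the SD (n = 2 in WT cells at day 0, otherwise n = 3). *Cyp26a1* at day 3 and *Crabp2* and *Stra6* at day 1 were lower in KO libraries, with no overlap between the genotypes.

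Between the genotypes, the calls changed with the day. At day 0, 1 of 9 members (*Cyp26a1*) was lower in KO cells against 1.45% of all genes, and 0 were higher against 1.60%. Over all genes, the 668 calls of day 0 became 2282 without WT day 0 replicate 2, 384 without WT day 0 replicate 1 and 73 in the libraries of the comparison alone. At day 1, *Crabp2*, *Stra6* and *Cyp26b1* were lower, 3 of 9 members against 1.76% of all genes, and 0 were higher against 0.462%. At day 3, *Cyp26a1* was lower again, 1 of 9 members against 0.773%, with 0 higher against 0.521%. At day 1 the median of all genes was itself lower in KO cells by −0.13 on the log2 scale, and the medians of all genes at day 0 and day 3 were 0.00.

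Responses were then compared as differences of differences. For the rise from day 0 to day 1, *Cyp26a1* had a larger response in KO cells (1 of 9 members, 0.187% of all genes) and *Crabp2*, *Stra6* and *Cyp26b1* a smaller one (3 of 9, 0.672%). For day 3 against day 0, *Crabp2* had a larger response (1 of 9, 1.17%) and *Dhrs3* a smaller one (1 of 9, 1.25%). For the change from day 1 to day 3, whose size does not use day 0 although its test pools the spread over all groups, *Crabp2* and *Stra6* changed more in the upward direction in KO cells (2 of 9, 1.72%) and *Cyp26a1* in the downward direction (1 of 9, 0.535%). These comparisons share libraries with each other and with the comparisons within a day, so their calls are not independent. The shares of all genes called for responses against day 0 (188 genes for day 1 and 529 for day 3) depended on which WT day 0 library was kept. More genes were called with replicate 1, the library that stood apart, as the only WT day 0 library, and fewer with replicate 2 as the only one.

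**Figure D3:**
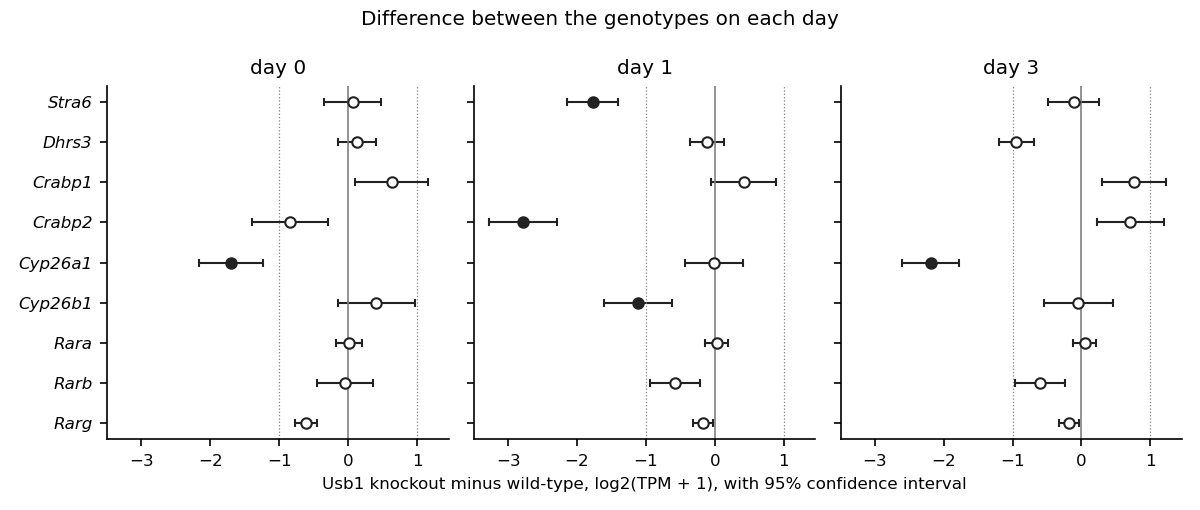
Difference between KO and WT cells in log2(TPM + 1) (horizontal axis) for the 9 genes on each day, with 95% confidence intervals from limma. Filled points were called and dotted lines mark a 2-fold change. *Cyp26a1* was lower at day 0 and day 3 but not at day 1 (−0.01), while *Crabp2*, *Stra6* and *Cyp26b1* were lower at day 1.

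*Stra6* (ENSMUSG00000032327; GRCm38 chromosome 9, 58063788 to 58153996), the retinol receptor, rose over the days of RA treatment in both genotypes. On day 0 the WT libraries held 0 and 0 TPM and the KO libraries 0.0372, 0.108 and 0 TPM. On day 1 the WT libraries held 16.7, 14.4 and 13.8 TPM and the KO libraries 4.11, 4.66 and 2.50 TPM. On day 3 the WT libraries held 8.82, 8.12 and 7.76 TPM and the KO libraries 8.24, 7.81 and 6.64 TPM. The WT libraries were highest at day 1, when their mean was at least 128.7-fold above the level that 3 reads would give in WT day 0 replicate 2, and the KO libraries were highest at day 3. The genotypes did not overlap at day 1, with a mean 3.98-fold lower in KO cells (log2 −1.77, SE 0.17, adjusted p = 1.09e-05), and overlapped at day 3 (−0.11, 95% confidence interval −0.48 to 0.25).

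The day 1 response of *Stra6* was smaller in KO cells by a log2 difference of −1.84 (SE 0.26, adjusted p = 0.00272). From day 1 to day 3 the genotypes moved in opposite directions, −0.79 in WT (SE 0.17, adjusted p = 0.00160) and 0.87 in KO cells (SE 0.17, adjusted p = 6.86e-04), both short of 2-fold on the log2(TPM + 1) scale. In mean TPM the KO rise was 2.01-fold, and it was called with a pseudocount of 0.1 (1.03, adjusted p = 0.0117). The difference between these changes was 1.66 (SE 0.24, adjusted p = 8.41e-04). In limma-voom on recovered reads the difference of the day 1 response was −3.45 and lost its call (adjusted p = 0.0991).

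*Dhrs3* (ENSMUSG00000066026; GRCm38 chromosome 4, 144892827 to 144928209) encodes the retinaldehyde reductase that returns precursor to the retinol pool. WT libraries of day 0 gave 2.72 and 2.16 TPM, against 2.66, 3.15 and 2.45 TPM for KO. By day 1 the libraries gave 72.6, 75.6 and 72.2 TPM (WT) and 75.5, 65.2 and 63.3 TPM (KO). The day 3 libraries gave 101, 100.1 and 91.7 TPM (WT) and 51.3, 59.3 and 41.9 TPM (KO). The genotypes overlapped until day 1 and separated at day 3. Against day 1, the log2 difference at day 3 was 0.41 in WT (SE 0.12, adjusted p = 0.0103) and −0.42 in KO cells (SE 0.12, adjusted p = 0.00794), both short of 2-fold. These changes differed by −0.83 (SE 0.16, adjusted p = 0.00719), also short of 2-fold. The difference was called with libraries scaled to an equal median (−1.03, adjusted p = 0.00770). In WT cells the rise to day 1 was 30.1-fold in mean TPM (log2 4.44, SE 0.13, adjusted p = 1.02e-11).

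At day 3 the mean of *Dhrs3* was 1.92-fold lower in KO cells, short of the 2-fold threshold (log2 −0.94, SE 0.12, adjusted p = 1.57e-04). It was called after quantile normalization (−1.01, adjusted p = 5.57e-04) and without KO day 3 replicate 2 (−1.06, adjusted p = 1.06e-04). The day 3 response was smaller by −1.07 (SE 0.17, adjusted p = 0.00286). In limma-voom on recovered reads this difference was −1.19 and lost its call (adjusted p = 0.128), and without WT day 0 replicate 2 (−0.95), KO day 0 replicate 2 (−0.995) or KO day 3 replicate 3 (−0.94) it was short of 2-fold.

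*Crabp1* (ENSMUSG00000032291; GRCm38 chromosome 9, 54764748 to 54773110), one of the pair of cytoplasmic RA-binding proteins, was the more abundant of them before RA. Day 0 values were 45.7 and 24.2 TPM (WT) and 48.9, 52.2 and 55.5 TPM (KO). Day 1 values were 30.4, 32.6 and 29.9 TPM (WT) and 41.8, 40.9 and 42.4 TPM (KO). Day 3 values were 9.70, 16.9 and 10.4 TPM (WT) and 27.5, 19.0 and 17.8 TPM (KO). Every KO library was above every WT library of its day, yet no day was called: the log2 differences were 0.63 (adjusted p = 0.111), 0.42 (adjusted p = 0.227) and 0.77 (adjusted p = 0.0478, short of 2-fold). *Crabp1* fell by day 3 against day 0 in both genotypes, by −1.40 in WT (SE 0.24, adjusted p = 1.94e-04) and −1.27 in KO cells (SE 0.22, adjusted p = 1.75e-04).

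The values of *Crabp1* at day 0 depended on a single library. Without WT day 0 replicate 1 its change in WT cells was −0.96, short of 2-fold, and its difference between the genotypes at day 0 was 1.08 (adjusted p = 0.0246). In a fit of the WT libraries of day 0 and day 3 alone, the fall lost its call (adjusted p = 0.0523). The uncalled WT change of *Crabp1* from day 0 to day 1 was −0.10, and 0.34 (adjusted p = 0.342) without replicate 1, and the difference of the day 3 response was 0.13, and −0.31 (adjusted p = 0.641) without it.

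*Crabp2* (ENSMUSG00000004885; GRCm38 chromosome 3, 87948666 to 87953376), the form that carries RA to the nuclear receptors, showed the largest change of genotype effect between days among the 9 genes. On day 0 the WT libraries held 5.86 and 2.73 TPM and the KO libraries 1.64, 1.27 and 2.79 TPM. On day 1 the WT libraries held 71.1, 61.0 and 65.5 TPM and the KO libraries 11.6, 6.90 and 8.28 TPM. On day 3 the WT libraries held 82.6, 100.5 and 73.5 TPM and the KO libraries 148, 141 and 130.3 TPM. The groups overlapped at day 0, were apart with KO cells low at day 1, and were apart with KO cells high at day 3. In the lowest WT library at day 1 there were 380 reads of *Crabp2*, and in the highest KO library 72.

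At day 0 the log2 difference of *Crabp2* was −0.84 (SE 0.26, adjusted p = 0.0481), short of 2-fold on the log2(TPM + 1) scale, and the KO mean TPM was 2.26-fold lower. It was called with a pseudocount of 0.1 (−1.11, adjusted p = 0.0357), without WT day 0 replicate 2 (−1.28, adjusted p = 0.00499) and without KO day 0 replicate 3 (−1.05, adjusted p = 0.0258). At day 1 the mean of *Crabp2* was 7.40-fold lower in KO cells (log2 −2.78, SE 0.23, adjusted p = 2.51e-06), and at day 3 it was 1.63-fold higher (0.71, SE 0.23, adjusted p = 0.0811), which was not called. The change from day 1 to day 3 was 0.36 in WT (SE 0.23, adjusted p = 0.231) and 3.85 in KO cells (SE 0.23, adjusted p = 4.74e-09), a difference of 3.49 (SE 0.32, adjusted p = 2.52e-05). Relative to day 0 the response was smaller at day 1 (−1.94, SE 0.34, adjusted p = 0.0114) and larger at day 3 (1.55, SE 0.34, adjusted p = 0.0181). Both of these lost their call in limma-voom on recovered reads (−1.74, adjusted p = 0.157, and 1.79, adjusted p = 0.0937) and, at the same size, in a fit of those libraries alone (0.0562 and 0.0684), and the day 3 response was 1.11 (adjusted p = 0.0866) without WT day 0 replicate 1.

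Within a library, the balance of the pair can be given as a share of their summed TPM. *Crabp2* made up 10.8% ± 0.867 (SD, n = 2) of the pair in WT and 3.47% ± 1.23 (SD, n = 3) in KO cells at day 0. At day 1 its share was 68.0% ± 2.49 in WT and 17.5% ± 3.75 in KO cells (SD, n = 3 each). By day 3 the shares were 87.6% ± 1.92 and 86.8% ± 2.19 (SD, n = 3 each). The shares did not overlap between the genotypes at day 1, from 65.2 to 70.1% against 14.4 to 21.7%, and they overlapped at day 3. Summed over the pair, the level at day 3 was 97.9 ± 17.4 TPM in WT and 161 ± 13.5 TPM in KO cells.

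*Cyp26a1* (ENSMUSG00000024987; GRCm38 chromosome 19, 37697798 to 37701536), the main RA-degrading enzyme of early embryos, reached the highest level of the 9 genes. WT libraries of day 0 gave 3.66 and 1.78 TPM, against 0, 0.354 and 0 TPM for KO. By day 1 the libraries gave 104, 118 and 112 TPM (WT) and 116, 107 and 108 TPM (KO). The day 3 libraries gave 440.1, 419 and 347 TPM (WT) and 84.3, 113 and 69.0 TPM (KO). The genotypes were apart at day 0, intermingled at day 1 and apart again at day 3. The reads behind day 0 were 35 and 16 in WT against 0, 3 and 0 in KO libraries, so no fold is given for that day.

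At day 3 the mean of *Cyp26a1* was 4.52-fold lower in KO cells (log2 −2.19, SE 0.19, adjusted p = 9.51e-06). At day 1 the difference was −0.01, with a 95% confidence interval from −0.43 to 0.40. Between these days the WT mean rose 3.61-fold (log2 1.84, SE 0.19, adjusted p = 2.01e-06), while the change in KO cells was −0.34 (SE 0.19, adjusted p = 0.183), and the difference was −2.18 (SE 0.27, adjusted p = 2.70e-04). At day 0 the log2 difference was −1.70 (SE 0.22, adjusted p = 2.58e-04), and the day 1 response was larger in KO cells by 1.69 (SE 0.29, adjusted p = 0.00903). The difference of the day 3 response was −0.48 (adjusted p = 0.350), and 1.81 (adjusted p = 0.129) with a pseudocount of 0.1, neither of them called. In a fit of the day 0 libraries alone the call at day 0 was lost (adjusted p = 0.0925), and with a pseudocount of 0.1 that of the change from day 1 to day 3 was lost (−2.19, adjusted p = 0.0538).

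*Cyp26b1* (ENSMUSG00000063415; GRCm38 chromosome 6, 84571414 to 84593908), another enzyme of the family, was called higher from day 1 in WT cells (log2 2.03, SE 0.26, adjusted p = 2.79e-05 against day 0) and at day 3 in KO cells. Day 0 values were 0 and 0.548 TPM (WT) and 1.25, 0.430 and 0.406 TPM (KO). Day 1 values were 4.23, 4.13 and 3.87 TPM (WT) and 1.11, 1.36 and 1.58 TPM (KO). Day 3 values were 36.7, 33.1 and 30.6 TPM (WT) and 25.9, 45.6 and 28.3 TPM (KO). Only at day 1 were the genotypes apart, with a mean 3.02-fold lower in KO cells (log2 −1.11, SE 0.23, adjusted p = 0.00496). In KO cells the libraries of day 0 and day 1 overlapped, and the step from day 1 to day 3 was 24.6-fold in mean TPM (log2 3.83, SE 0.23, adjusted p = 6.10e-09).

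The call of *Cyp26b1* at day 1 was lost with a pseudocount of 0.1 (−1.54, adjusted p = 0.0666), with quantile normalization (−0.97) and with libraries scaled to an equal median (−0.90), the last 2 being short of 2-fold. The smaller day 1 response (−1.53, SE 0.35, adjusted p = 0.0374) lost its call under most alternatives, with adjusted p between 0.0521 and 0.155. In those settings it ranged from −1.17 with quantile normalization to −4.15 in limma-voom on recovered reads, and it was −1.21 without WT day 0 replicate 1. The change from day 1 to day 3 differed by 1.07 (adjusted p = 0.0662), which was not called. It was called in the libraries of the comparison alone (adjusted p = 0.0318) and without WT day 0 replicate 1 (0.0415), WT day 0 replicate 2 (0.0415), KO day 0 replicate 1 (0.0457) or KO day 3 replicate 1 (1.22, 0.0383).

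The remaining enzyme of the family, *Cyp26c1*, was not among the 9 genes and was taken from the list of other pathway genes. Its mean was 1.05 and 0.245 TPM at day 0, 15.2 and 17.1 TPM at day 1, and 16.5 and 5.59 TPM at day 3, the WT value first. Like *Cyp26a1* it was called lower in KO cells at day 3 (log2 −1.41, SE 0.19, adjusted p = 3.14e-04) and not at day 1 (0.16, adjusted p = 0.635). The 3 enzymes summed to 130.4 ± 6.46 TPM in WT and 129 ± 5.96 TPM in KO cells at day 1, and to 452 ± 49.2 and 128 ± 33.8 TPM at day 3 (SD, n = 3 each). *Cyp26a1* supplied 88.9% ± 1.40 of that sum in WT and 69.7% ± 2.98 in KO cells at day 3, and *Cyp26b1* 7.41% ± 0.295 and 25.9% ± 2.98 (SD, n = 3 each).

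**Figure D4:**
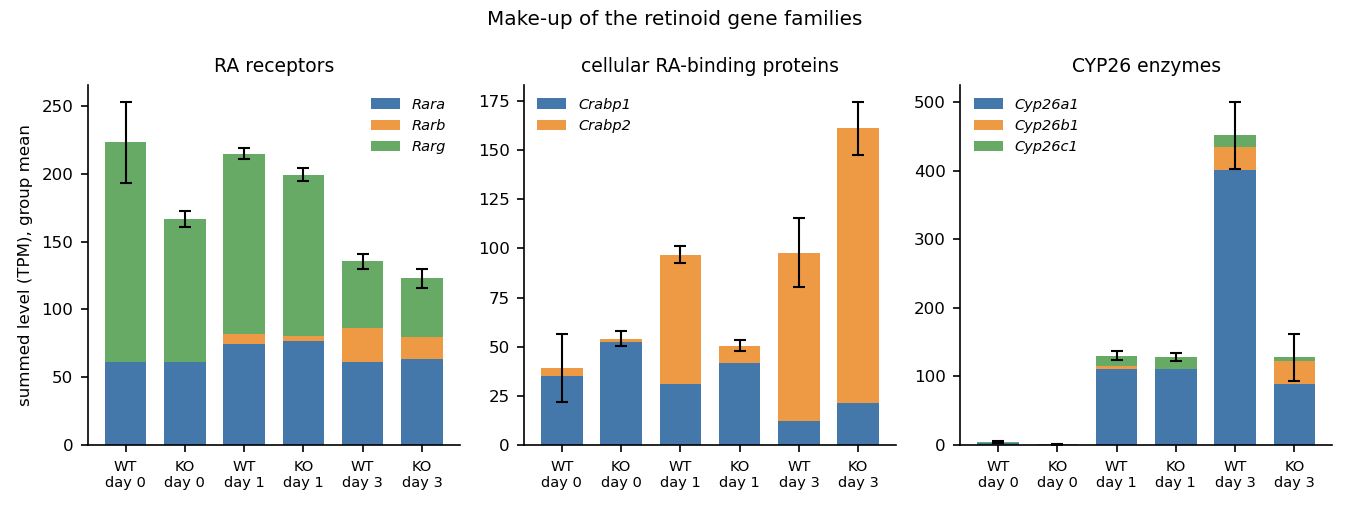
Summed level in TPM (vertical axis, from 0) of the RA receptors, the cellular RA-binding proteins and the CYP26 enzymes in each group, as group means stacked by gene. Bars on top are the SD of the sum over libraries (n = 2 in WT cells at day 0, otherwise n = 3). At day 1 the binding proteins were mainly *Crabp2* in WT and mainly *Crabp1* in KO cells, and at day 3 the CYP26 sum was 452 against 128 TPM.

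*Rara* (ENSMUSG00000037992; GRCm38 chromosome 11, 98927818 to 98974942), which encodes the broadly expressed RARα, changed least. On day 0 the WT libraries held 52.9 and 69.6 TPM and the KO libraries 60.4, 59.5 and 64.2 TPM. On day 1 the WT libraries held 74.9, 75.3 and 74.2 TPM and the KO libraries 79.2, 73.5 and 76.6 TPM. On day 3 the WT libraries held 60.1, 61.0 and 61.8 TPM and the KO libraries 63.4, 66.6 and 59.6 TPM. The genotypes overlapped on each day, with log2 differences of 0.01 (95% confidence interval −0.17 to 0.20), 0.03 (−0.14 to 0.20) and 0.05 (−0.12 to 0.22). Without WT day 0 replicate 1 the day 0 difference was −0.18 (adjusted p = 0.171), and the WT change from day 0 to day 3 went from 0.01 to −0.19 (adjusted p = 0.0435, short of 2-fold). The day 1 libraries were above those of day 0 and day 3 in both genotypes, by less than 2-fold against day 0 (0.30, adjusted p = 0.0155 in WT, and 0.31, adjusted p = 0.00797 in KO cells).

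*Rarb* (ENSMUSG00000017491; GRCm38 chromosome 14, 16430839 to 16819156) encodes RARβ, a receptor that is also a classical RA target, and carries the repeat shown above. WT libraries of day 0 gave 0.517 and 0.0429 TPM, against 0.329, 0 and 0.371 TPM for KO. By day 1 the libraries gave 7.60, 6.78 and 6.65 TPM (WT) and 4.31, 4.23 and 4.48 TPM (KO). The day 3 libraries gave 23.3, 24.1 and 28.1 TPM (WT) and 15.0, 19.1 and 14.8 TPM (KO). The genotypes overlapped at day 0 and were apart at day 1 and day 3, with means 1.61-fold and 1.54-fold lower in KO cells. These differences (log2 −0.58, SE 0.17, adjusted p = 0.0294; and −0.60, SE 0.17, adjusted p = 0.0439) were short of the 2-fold threshold. At day 0 the difference was −0.04, and 0.23 (adjusted p = 0.577) without WT day 0 replicate 1.

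*Rarb* rose in both genotypes, by 2.67 at day 1 (SE 0.19, adjusted p = 7.80e-08) and 4.38 at day 3 (SE 0.19, adjusted p = 9.36e-11) in WT cells, and by 2.13 (SE 0.17, adjusted p = 3.35e-07) and 3.82 (SE 0.17, adjusted p = 1.02e-10) in KO cells. Its responses were not called as different: −0.54 (adjusted p = 0.280) at day 1 and −0.56 (adjusted p = 0.208) at day 3. Their 95% confidence intervals ran from −1.08 to 0.00 and from −1.10 to −0.02. After quantile normalization the day 1 value was in the other direction (0.17, adjusted p = 0.839).

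*Rarg* (ENSMUSG00000001288; GRCm38 chromosome 15, 102234938 to 102257517) encodes RARγ and was the most abundant receptor before RA. Day 0 values were 149 and 175 TPM (WT) and 101, 106 and 108 TPM (KO). Day 1 values were 132, 129 and 138 TPM (WT) and 121, 122 and 114 TPM (KO). Day 3 values were 48.9, 47.4 and 51.8 TPM (WT) and 39.9, 45.2 and 45.1 TPM (KO). KO libraries were below WT libraries on each day without overlap, by a log2 difference of −0.61 at day 0 (SE 0.08, adjusted p = 2.18e-04), −0.17 at day 1 (adjusted p = 0.118) and −0.18 at day 3 (adjusted p = 0.138), none reaching 2-fold. At day 1 the median of all genes was also lower in KO cells, and the difference relative to it was −0.03. With libraries scaled to an equal median the day 1 difference was in the other direction (0.05, adjusted p = 0.692).

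*Rarg* fell by −1.69 from day 0 to day 3 in WT cells (SE 0.08, adjusted p = 1.49e-10) and by −1.26 in KO cells (SE 0.07, adjusted p = 8.84e-10). The changes from day 1 to day 3 were −1.41 and −1.43 (SE 0.07 each), while those from day 0 to day 1 were −0.27 (adjusted p = 0.0109) and 0.17 (adjusted p = 0.0756), short of 2-fold. The day 3 responses differed by 0.43 (SE 0.10, adjusted p = 0.0247), short of 2-fold.

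The mixture of receptors in each library can be given in the same way. *Rarg* made up 72.5% ± 1.44 (SD, n = 2) of the summed receptor TPM in WT and 63.1% ± 0.928 (SD, n = 3) in KO cells at day 0, and 36.4% ± 0.611 and 35.3% ± 2.13 at day 3 (SD, n = 3 each). *Rarb* went from 0.137% ± 0.169 (SD, n = 2) and 0.139% ± 0.121 (SD, n = 3) at day 0 to 18.6% ± 1.15 and 13.2% ± 1.20 at day 3 (SD, n = 3 each). The *Rarb* shares at day 3 did not overlap between the genotypes, from 17.6 to 19.8% against 12.4 to 14.6%. The sum of the 3 receptors was 223 ± 30.1 TPM (SD, n = 2) and 167 ± 5.76 TPM (SD, n = 3) at day 0, and 136 ± 5.35 and 123 ± 6.96 TPM at day 3 (SD, n = 3 each).

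The order of the 6 groups by mean level also differed between genes. Neighbouring groups of *Rarg* were apart at each step, in the order WT day 0, WT day 1, KO day 1, KO day 0, WT day 3 and KO day 3. For *Cyp26a1*, WT day 3 stood alone at the top, and WT day 1, KO day 1 and KO day 3 followed without separation from each neighbour. For *Crabp2* the order was KO day 3, WT day 3, WT day 1, KO day 1, WT day 0 and KO day 0, with overlap between the last 2 groups and at no other step. *Rara* formed 2 tiers, both day 1 groups above all others.

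Other genes of the pathway were followed as 59 genes in 6 lists, of which 47 were tested. At day 1 in WT cells, 12 of the 47 rose (9.99% of all genes) and 0 fell (3.88%), and at day 3 against day 0, 19 rose (16.1%) and 3 fell (9.68%). In KO cells, 13 rose (4.07%) and 1 fell (2.87%) at day 1, and 19 rose (13.8%) and 1 fell (8.04%) at day 3. From day 1 to day 3, 12 rose (7.70%) and 5 fell (7.54%) in WT cells, and 13 (9.60%) and 4 (5.73%) in KO cells. Between the genotypes, 1 was higher (1.60%) and 1 lower (1.45%) at day 0, 0 (0.462%) and 4 (1.76%) at day 1, and 0 (0.521%) and 2 (0.773%) at day 3. The genes that make or store RA precursors, 14 tested of 22, included *Lrat*, which esterifies retinol and rose at day 1 in both genotypes (log2 1.96, adjusted p = 1.74e-06, and 1.06, adjusted p = 2.68e-04). From day 1 to day 3 the mean of *Lrat* went from 2.92 to 0.258 TPM in WT and from 1.47 to 0.307 TPM in KO cells. This fall was called in WT cells (1 of 14, near the 7.54% of all genes) and not in KO cells. The difference between the 2 falls was itself not called. For the change from day 1 to day 3, 0 of the 14 differed between the genotypes (1.72% of all genes more positive in KO cells and 0.535% more negative). The list also included *Rdh10*, which oxidises retinol, and *Aldh1a2*, which makes RA from retinaldehyde. *Rdh10* was higher at day 3 against day 0 by 2.19 in WT (adjusted p = 6.04e-08) and 2.31 in KO cells (adjusted p = 9.39e-09), and *Aldh1a2* by 1.49 (adjusted p = 0.00288) and 1.10 (adjusted p = 0.0106). None of these 14 was called between the genotypes on any day.

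Of the carriers and uptake genes, 6 of 8 were tested. *Ttr*, a retinol carrier of blood plasma that visceral endoderm also makes, was at 76.3 ± 7.97 TPM in WT and 29.2 ± 4.72 TPM in KO cells at day 3 (SD, n = 3 each; log2 −1.36, SE 0.15, adjusted p = 5.04e-05). Of 4 partner receptors (the RXRs and *Ppard*), 3 were tested. None of these was called in any of the 12 comparisons, in which 0.187 to 16.1% of all genes were called per direction. Of 12 coregulators, *Nrip1*, a corepressor induced by RA, rose at day 1 in both genotypes (2.30, adjusted p = 3.16e-07, and 1.98, adjusted p = 5.87e-07). This was 1 of 12 in each genotype, beside 9.99% of all genes in WT and 4.07% in KO cells. Such a count does not set the coregulators apart from all genes. Between the genotypes 0 of 12 were called on any day. The shares of all genes were 1.60% higher and 1.45% lower at day 0, 0.462% and 1.76% at day 1, and 0.521% and 0.773% at day 3. Over the 12 coregulators the median log2 difference was −0.22 at day 0, −0.55 at day 1 and 0.04 at day 3. Over all genes it was 0.00, −0.13 and 0.00. At day 1 *Nrip1* was at 30.4 ± 4.50 TPM in WT and 16.7 ± 2.71 TPM in KO cells, and at day 3 at 27.0 ± 3.60 and 32.8 ± 6.72 TPM (SD, n = 3 each). Its change from day 1 to day 3 was called more positive in KO cells (1.09, SE 0.23, adjusted p = 0.0118), 1 of 12 against 1.72% of all genes.

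Of the textbook RA targets, 11 of 12 were tested, and 8 rose at day 1 and 9 at day 3 in each genotype. Of all genes, 9.99% and 16.1% rose in WT and 4.07% and 13.8% in KO cells. At day 1, 0 of the 11 fell in WT (3.88% of all genes) and 1, *Tgm2*, fell in KO cells (2.87%). At day 3 against day 0, 0 fell in either genotype (9.68% and 8.04%). *Hoxb1*, a hindbrain patterning gene, was at 15.7 ± 2.50 TPM in WT and 3.04 ± 0.0895 TPM in KO cells at day 1 (SD, n = 3 each; log2 −2.04, SE 0.12, adjusted p = 9.09e-08), and *Meis2*, a cofactor of HOX proteins, at 9.95 ± 0.543 and 3.74 ± 0.243 TPM (SD, n = 3 each; −1.21, SE 0.13, adjusted p = 2.81e-05). *Stra8*, a germ cell gene named for its response to RA, was at 869 ± 32.3 and 396 ± 21.7 TPM at day 1 (SD, n = 3 each; −1.13, SE 0.07, adjusted p = 2.10e-07). Unlike *Hoxb1* and *Meis2*, it was already called lower before RA, at 25.2 TPM in WT and 10.3 TPM in KO cells on day 0 (−1.22, adjusted p = 5.88e-07), and its day 1 response differed by 0.09 (adjusted p = 0.695). These 3 of 11 targets were lower in KO cells at day 1 (1.76% of all genes), none was higher (0.462%), and none was called at day 3 (0.773% lower and 0.521% higher), where *Hoxb1* was at 36.5 ± 2.99 and 40.9 ± 2.18 TPM (SD, n = 3 each). The log2 change from day 0 to day 1 was lower in KO than in WT cells for 4 of 11 (0.672% of all genes), namely *Hoxb1* (−2.04, adjusted p = 1.38e-04), *Tgm2*, a transglutaminase (−1.27, adjusted p = 0.00516), *Meis2* (−1.26, adjusted p = 0.00551) and *Hoxa4* (−1.13, adjusted p = 0.0195). To day 3 it was lower for *Tgm2* (−1.80, adjusted p = 1.67e-04) and *Hoxa4* (−1.15, adjusted p = 0.00789), 2 of 11 against 1.25%. Before RA, *Tgm2* was called higher in KO cells (1.24, adjusted p = 1.44e-04). *Hoxa4* was near the floor on day 0, with means of 0.142 TPM in WT and 0.714 TPM in KO cells, so part of its response differences rests on low values. At day 1 it was at 59.0 ± 1.81 and 40.3 ± 2.79 TPM (SD, n = 3 each), and it was called between the genotypes on neither day. The median log2 difference over the 11 targets was −0.54 at day 1 and 0.07 at day 3, beside −0.13 and 0.00 over all genes.

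Markers of cell state moved with these comparisons. The summed level of 6 pluripotency markers was 2836 to 2922 TPM in WT and 3587 to 3678 TPM in KO libraries at day 1, and 312 to 353 against 510 to 578 TPM at day 3. *Esrrb* was called higher in KO cells at day 1 (log2 1.09, adjusted p = 3.11e-06), and *Esrrb* (1.76, adjusted p = 5.14e-08) and *Nanog* (1.90, adjusted p = 4.27e-10) at day 3. *Sox2* was short of 2-fold (0.95, adjusted p = 2.95e-06). *Klf4* of the same list was at 58.0 ± 0.819 TPM in WT and 32.5 ± 2.84 TPM in KO cells at day 3 (SD, n = 3 each; −0.82, adjusted p = 1.14e-05, short of 2-fold). The summed level of 8 primitive and visceral endoderm markers was apart before RA, at 17.1 to 19.7 TPM in WT and 5.31 to 10.8 TPM in KO libraries on day 0, when *Cyp26a1* was also called lower. On that day *Amn* (−1.04, adjusted p = 0.0242) and *Cubn* (−1.55, adjusted p = 2.76e-05), which form an uptake receptor, were called lower, 2 of 8 against 1.45% of all genes. The sum was 64.8 ± 0.679 TPM in WT and 21.1 ± 1.06 TPM in KO cells at day 1 (SD, n = 3 each), and 632 to 689 against 304 to 349 TPM at day 3. In both genotypes *Gata6* led this list at day 1 and *Foxa2* at day 3, and 5 of 8 were called lower in KO cells at each of these days (1.76% and 0.773% of all genes), with *Gata6* (−1.71, adjusted p = 1.32e-07) among them at day 1 and *Gata4* (−1.73, adjusted p = 6.35e-04) and *Sox17* (−1.63, adjusted p = 1.42e-05) at day 3. No endoderm marker was at 0 in any library of these days.

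Of 6 neural markers 4 were tested and 0 were called between the genotypes on any day. The shares of all genes were 1.60% higher and 1.45% lower at day 0, 0.462% and 1.76% at day 1, and 0.521% and 0.773% at day 3. With shares this low, 0 of 4 does not set these markers apart from all genes. The summed level of the neural markers was nonetheless apart at day 0 (110 to 123 TPM in WT, 134 to 145 TPM in KO libraries) and at day 3 (101.3 to 111 and 135 to 156 TPM), and *Neurog2* averaged under 1 TPM in every group. Each of these sums was mostly 1 gene. In WT replicate 1 *Tubb3* was 108.9 of 123.2 TPM at day 0, and *Nes* was 85.6 of 103.3 TPM at day 3. Of 6 fibroblast markers 4 were tested and, beside the same shares of all genes, 0 were called between the genotypes on any day. Their summed levels did not overlap on any of the days, at 4.79 to 6.41 TPM in WT and 6.96 to 9.01 TPM in KO libraries at day 0, 6.69 to 8.28 and 4.65 to 5.26 TPM at day 1, and 40.6 to 49.8 and 62.4 to 70.2 TPM at day 3. At day 0 the sum was mostly *Thy1*, a surface protein (3.70 of 4.79 TPM in WT replicate 1 and 7.16 of 9.01 TPM in KO replicate 1). The most abundant gene at day 1 and day 3 was *Col1a1*, a collagen. At least 3 of the 6 genes were at 0 in every library of day 0 and day 1, so these sums do not stand for the whole list. The change from day 1 to day 3 was called more positive in KO cells for *Col1a1* (1.26, adjusted p = 0.00227) and *Thy1* (1.06, adjusted p = 0.00924), 2 of 4 against 1.72% of all genes. In bulk RNA, fewer cells of a type and less RNA per cell cannot be told apart, and the part of these marker differences in the levels of the 9 genes was not tested.

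Genes whose pattern over the 17 libraries was most like each member were ranked by Pearson's r among 11915 genes with a group mean of at least 10 TPM, as a description in which the libraries share the same days. *Dhrs3* came first for *Cyp26a1* (r = 0.977). *Dhrs3* itself was closest to the homeobox genes *Hoxa4* (0.991) and *Hoxa5* (0.990), and *Rarb* to *Hoxb9* (0.992) and *Foxa1* (0.992). *Foxa1*, an endoderm transcription factor, had means of 11.1 TPM (WT) and 4.90 TPM (KO) on day 1, and of 52.6 TPM (WT) and 22.6 TPM (KO) on day 3. For *Cyp26b1* the 2 nearest were *Agpat4* and *Fyn* (0.990 each), for *Crabp2* *Pnrc1* (0.980) and *Nt5c2* (0.979), and for *Stra6* *Prkaca* (0.989) and *Ap3b2* (0.984). *Rarg* lay closest to *G3bp2* (0.982), *Crabp1* to the predicted gene *Gm8730* (0.963) and *Rara* to *Tcp11* (0.930).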

How the data were processed

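RNA was sequenced from R1/E cells (NEBNext Ultra libraries, Illumina NovaSeq). The authors deposited TPM for each gene and library, calculated from gene length and read counts; the submitters' processing notes name HISAT2 2.1.0, StringTie 1.3.6 and GRCm38.p6. Reads were recovered from TPM with GENCODE M21 exon lengths, and 95.908 to 96.651% of values per library came out within 0.01 of a whole number. limma 3.58.1 (R 4.3.3) was fitted to log2(TPM + 1) with 6 group means and a variance trend, for 12 comparisons over 21871 genes, and tested on simulated data. Named genes were the 9 members, *Usb1*, up to 4 genes of each list among its largest changes in the comparison told, and 2 similar genes per member. *Eif2s3y*, *Pou5f1*, *Foxa2* at day 3, *Ppard* and *Neurog2* were named besides this rule, after their values were seen, as were *Gata6* and *Cyp26c1* where they were not called. *Hoxd4* has 2 identifiers, and the one in GENCODE M21 was used. Members and lists were chosen with earlier results of these data known. Python 3.11.15 with pandas 2.3.3, numpy 2.4.6 and matplotlib 3.10.9 made tables and figures. The labels number the replicates without naming cultures, so p-values measure the spread between these libraries. Whether counting used strand is not given in the sources used here. Alternatives were a pseudocount of 0.1, other filters, quantile or equal-median scaling, a robust variance model, a replicate block, limma-voom on recovered reads, the libraries of a comparison alone, adjusted p alone and each library left out.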

Additional observations from a re-analysis of the deposited data

Results flagged for a closer look

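In 9 cases the change over the days of RA treatment differed between the genotypes by the test of the difference itself (limma, difference of log2 changes, KO minus WT). For the change from day 0 to day 1 these were *Cyp26a1* (1.69), *Cyp26b1* (−1.53), *Crabp2* (−1.94) and *Stra6* (−1.84). Of all genes, 0.187% were called more positive in KO cells and 0.672% more negative. For day 0 to day 3 the members were *Crabp2* (1.55) and *Dhrs3* (−1.07), beside 1.17% and 1.25% of all genes. The shares of all genes for these 2 responses depended on which WT day 0 library was kept, as given above. For day 1 to day 3 the members were *Crabp2* (3.49), *Stra6* (1.66) and *Cyp26a1* (−2.18), beside 1.72% and 0.535% of all genes. The last 3 member values are differences between day 1 and day 3, while their tests share a spread estimated over all groups, day 0 included. Of 26 alternative settings, the call was lost in 17 for *Cyp26b1*, in 2 and 3 for the day 1 and day 3 responses of *Crabp2*, in 4 for *Dhrs3*, in 1 for the day 1 response of *Stra6* and in 1 for the last value of *Cyp26a1*. Voom on recovered reads was among them for *Cyp26b1*, *Crabp2*, *Dhrs3* and *Stra6*. Over the same days the summed endoderm marker level rose from 64.8 ± 0.679 to 660.4 ± 28.8 TPM in WT and from 21.1 ± 1.06 to 319 ± 25.8 TPM in KO cells (SD, n = 3 each), and its part in the differences was not tested.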

How the results depend on the processing

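Of 2808 values (108 member values under 26 alternative settings), 2740 kept their direction and call, 34 lost their call, 18 gained one, 14 moved without a call and 2 reversed. The reversals were of *Rara* at day 3 against day 0 (0.01 and 0.04 as reported). It was −0.19 (adjusted p = 0.0435) in WT cells without WT day 0 replicate 1, with a range from −0.19 to 0.20 over the libraries left out, and −0.24 (adjusted p = 0.0421) in KO cells with libraries scaled to an equal median. By adjusted p alone, members called between the genotypes were 3 at day 0 (11.9% of all genes pass that rule) and 4 at day 3 (7.52%), against 1 each as reported. They were 8 from day 1 to day 3 in each genotype (43.8% in WT and 44.9% in KO cells). At day 0 the count was 2 with a pseudocount of 0.1 and 0 in the libraries of the comparison alone, and at day 3 it was 2 after quantile normalization. Over all genes these settings called 953 and 73 at day 0 in place of 668, and 285 at day 3 in place of 283. Differences of the day 1 response numbered 1 with voom on recovered reads and 2 in the comparison's libraries alone, and of the day 3 response 0 and 1. Over all genes the same settings called 278 and 136 for the day 1 response, and 693 and 258 for the day 3 response. Leaving out each library gave 1 to 2 calls between the genotypes at day 0 and day 3, and 1 to 2 for the day 3 response. Where 1 library of a group was left, its spread was taken from the other groups. Over all genes, leaving out WT day 0 replicate 2 raised the calls at day 0 from 668 to 2282, and leaving out replicate 1 lowered them to 384; they were 1280 with voom and 73 in the comparison's libraries alone. Calls for the day 1 response (188) ranged from 101 to 1822 and for the day 3 response (529) from 353 to 1968 over the libraries left out, the highest again without WT day 0 replicate 2. Voom raised the calls from day 0 to day 1 in KO cells from 1519 to 2317. Same-numbered replicates did not deviate together (mean r = −0.00517 over 40 pairs). With so few libraries per group, this cannot show whether they came from the same culture or run. With the replicate number as a block, *Cyp26b1* lost its day 1 response call (−1.57), and no other member value changed its call.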

Other observations

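*Tgm2*, the gene of a transglutaminase often listed as an RA target, was called higher in KO cells at day 0, unlike the other 10 targets tested. Its mean was 19.2 ± 2.73 TPM (SD, n = 2) in WT and 46.5 ± 2.52 TPM (SD, n = 3) in KO cells at day 0 (log2 1.24, SE 0.15, adjusted p = 1.44e-04, limma). It fell at day 1 in KO cells (−2.08, SE 0.13, adjusted p = 2.98e-08) to 10.2 ± 0.720 TPM, beside 10.7 ± 2.58 TPM in WT cells (SD, n = 3 each). *Cdx1*, an RA-responsive homeobox gene, was at 31.1 ± 3.81 TPM in WT and 59.0 ± 3.10 TPM in KO cells at day 1 (SD, n = 3 each; 0.91, SE 0.19, adjusted p = 0.00489, short of 2-fold).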
